A study of Mus musculus with 2 samples.

Results

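The strongest coding promoters of mouse megakaryocyte chromatin were the 1387 open regions at protein-coding transcript starts whose fold over local background averaged 16 or more in 2 ATAC-seq samples. ATAC-seq marks accessible DNA by the insertion of sequencing adapters by a transposase, and a peak list gives the places where insertions pile up. Both samples were labelled as megakaryocytes, as primary cells, from C57BL/6J male adult mice aged 5 to 6 weeks, with 50000 cells each. They form a single group of 2 biological replicates, so the study has no treated or control arm, and the labels cite the same donor record for both, so the spread between them may be partly technical.

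Overlapping peaks of a sample were merged, the highest fold in each merged region was kept, and regions that overlapped between the samples were joined on chromosomes 1 to 19. This gave 78004 merged regions in replicate 1, 79861 in replicate 2 and 67991 shared regions. Of these, 13641 lay within 500 bp of the start of a protein-coding transcript, and 1387 of those had a mean fold of at least 16, which is 10.2% of the shared coding promoter regions. The other 12254 coding promoter regions are the set they are described against. Column 7 of the peak lists, taken as fold enrichment from their narrowPeak format, is the value the 1387 were chosen by. The fold values below are therefore a description and carry no test. Read depth is unknown, since the lists hold no counts.

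A promoter is the stretch of DNA around a transcription start where general factors and RNA polymerase II assemble, and in active genes it is kept free of nucleosomes. Many mammalian promoters, above all those of genes used in every cell, lie in CpG islands, where CG dinucleotides have been kept at high density. Sequence-specific factors such as NF-Y, ETS proteins, YY1, ZNF143, NRF1, CREB and the SP and KLF family are known to bind close to the start of such promoters. Megakaryocytes are the large polyploid bone marrow cells that release platelets, and their lineage genes are known to be controlled by GATA1, RUNX1, FLI1 and other factors.

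The label was set against defining genes before the strongest promoters were described. Of 12 megakaryocyte markers, 3 had a shared region at a coding start, namely Itga2b with a mean fold of 6.31, Itgb3 with 7.62 and Pf4 with 4.56. The platelet genes Gp1ba, Gp9, Gp6, Ppbp, Vwf and Selp were among those with none within 500 bp. Of 8 neutrophil and monocyte markers 7 had a shared region, with mean folds between 5.64 and 12.2, and of 6 erythroid markers 4 had one, between 4.77 and 7.72, with Alas2 on a chromosome outside those read. Of 6 B and T cell markers, Cd3d alone had a region, at 14.7, and the 2 hepatocyte and 2 neuron markers had none, with Syn1 likewise outside. Megakaryocyte markers therefore had a shared region less often than neutrophil and monocyte or erythroid markers, so the name megakaryocyte rests on the label. No marker of any of these cell types was at a mean fold of 16 or more, and the part of these cell types in the results was not tested.

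The sequences below show what DNA under the strongest summits looks like, with a set of the highest regions and the highest examples of each motif discussed later. Each is the longest stretch free of annotated exons in the window of 100 bases to each side of the summit, read from mm10 5′ to 3′ on the strand of the gene. Capitals mark a match, on either strand, to CCAAT (NF-Y), CCGGAAG (ETS), AAGATGGCG (YY1), ACTACAA (ZNF143), TGACGTCA (the cyclic AMP response element, CRE), GCGCATGCG (NRF1) or CTCGCGAGA (the CGCG element). ATTGG is CCAAT read on the opposite strand and CTTCCGG is the ETS motif read on the opposite strand. Snrnp48 is shown as a region among the highest with none of these letters in its stretch.
Pnpt1, chr11:29130621-29130743, + strand: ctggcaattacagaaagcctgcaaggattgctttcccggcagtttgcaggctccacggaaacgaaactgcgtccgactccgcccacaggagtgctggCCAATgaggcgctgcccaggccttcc
Tbc1d10a, chr11:4186635-4186788, + strand: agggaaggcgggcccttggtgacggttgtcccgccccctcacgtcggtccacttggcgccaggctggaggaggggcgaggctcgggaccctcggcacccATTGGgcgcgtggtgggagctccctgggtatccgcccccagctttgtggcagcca
Prpf8, chr11:75486636-75486815, + strand: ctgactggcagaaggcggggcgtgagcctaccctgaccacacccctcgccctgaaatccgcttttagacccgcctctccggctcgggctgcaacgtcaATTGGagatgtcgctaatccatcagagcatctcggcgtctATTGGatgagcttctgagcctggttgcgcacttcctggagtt
Snrnp48, chr13:38204801-38204937, + strand: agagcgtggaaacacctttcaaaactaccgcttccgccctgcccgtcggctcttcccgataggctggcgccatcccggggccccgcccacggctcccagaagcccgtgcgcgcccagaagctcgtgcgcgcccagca
Med24, chr11:98729436-98729548, - strand: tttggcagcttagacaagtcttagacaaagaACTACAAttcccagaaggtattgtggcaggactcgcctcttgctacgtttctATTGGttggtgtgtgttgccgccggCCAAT
Naxd, chr8:11497441-11497505, + strand: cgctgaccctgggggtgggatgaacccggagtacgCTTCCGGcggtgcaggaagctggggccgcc
Exoc7, chr11:116306735-116306863, - strand: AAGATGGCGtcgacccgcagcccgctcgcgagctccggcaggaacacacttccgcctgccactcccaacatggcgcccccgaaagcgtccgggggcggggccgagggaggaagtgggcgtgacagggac
Ranbp6, chr19:29812975-29813104, - strand: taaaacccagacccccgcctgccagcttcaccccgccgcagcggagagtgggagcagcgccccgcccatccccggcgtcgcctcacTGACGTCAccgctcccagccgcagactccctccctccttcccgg
Wipf2, chr11:98863503-98863637, + strand: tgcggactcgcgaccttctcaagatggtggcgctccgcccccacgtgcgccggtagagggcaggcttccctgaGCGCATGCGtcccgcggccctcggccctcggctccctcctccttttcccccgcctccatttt
Tubgcp5, chr7:55794040-55794153, + strand: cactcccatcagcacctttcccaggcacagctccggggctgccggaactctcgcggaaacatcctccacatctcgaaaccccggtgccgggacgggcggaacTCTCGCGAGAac

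The highest coding promoter in the data was that of Pnpt1, which encodes polynucleotide phosphorylase, an RNA-degrading enzyme of mitochondria. Its region, chr11:29130063-29131318, had a fold of 23.7 in replicate 1 and 24.8 in replicate 2. Tbc1d10a, which encodes a GTPase-activating protein for Rab proteins, followed with 23.8 and 24.1 in replicates 1 and 2. Replicate 2 was the higher sample at both, by little against the range of the 1387.

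Several of the next regions belonged to genes of RNA handling. Gpatch4, a nucleolar G-patch protein, had folds of 23.2 and 24.1 in replicates 1 and 2. Snrnp48, a component of the minor spliceosome, had 23.9 and 22.8, and Prpf8, the scaffold protein of the spliceosome's catalytic centre, had 22.9 and 23.0. Gle1, an mRNA export factor of the nuclear pore, stood at 25.05 in replicate 1, the highest single value of any of the 1387, and at 20.8 in replicate 2. The replicates of Gle1 therefore lay further apart (SD 2.98, n = 2) than those of Pnpt1 (SD 0.716, n = 2).

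The rest of the 15 highest had mean folds between 22.4 and 22.9 and covered varied cell functions. Among them were Tsfm, a mitochondrial translation elongation factor (22.8), Mrpl15, a mitochondrial ribosomal protein (22.4), and Med24, a subunit of the Mediator complex (22.6). Spag5, which encodes the spindle protein astrin, averaged 22.6, Nicn1, a subunit of the tubulin polyglutamylase complex, averaged 22.6, and Xrcc1, a scaffold of single-strand break repair, averaged 22.5. Zcchc10 averaged 22.9 and Rnf135, a ubiquitin ligase of the antiviral RNA-sensing pathway, averaged 22.4. The region of Tph2, the enzyme of serotonin synthesis known from neurons, had 22.5 in both replicates, and its summit lay 61 bp downstream of the start.

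Across the 1387 regions the mean fold ran from 16.0006 to 24.3 with a median of 17.4, so most lay near the lower bound. Of them 893 were between 16 and 18, 372 between 18 and 20, and 122 at 20 or more. Just inside the threshold were Lss (16.0046), Xab2 with Pet100 (16.0041), Usp34 (16.0034), Ap3s2 (16.0019) and Gpc5 (16.0006). Just outside it were Cit (15.9999), Nt5c (15.9989), D10Wsu102e (15.9972), Pak4 with Samd4b (15.9971) and Sel1l (15.9957). The bound therefore separates regions that differ by far less than the replicates do, as Ap3s2 shows with 14.3 in replicate 1 and 17.7 in replicate 2.

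Both replicates reached 16 on their own in 1107 of the 1387 regions, replicate 1 alone did in 216 and replicate 2 alone in 64. The fold was higher in replicate 1 at 939 regions and in replicate 2 at 448. The median log2 ratio of replicate 2 over replicate 1 was -0.04 (SD over regions 0.10) at the strongest promoters and -0.03 (SD 0.18) at the other coding promoter regions, against 0.05 over all 67991 shared regions. With −log10 p in place of fold, the median ratio at the strongest promoters was 0.04, of the opposite sign. Of the 1387, 1384 (99.8%) differed by no more than 1.25-fold between replicates, against 92.6% of the others (98.8% from 12 to 16). The largest ratios were those of Trp53rka (18.5 in replicate 1, 14.6 in replicate 2), Ptpdc1 (21.1 and 16.7), Rbms2 (14.9 and 18.8), Zfand1 (20.5 and 16.5) and Ap3s2. Of these, Trp53rka has a second match in the genome for its summit window, so its folds are uncertain.

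**Figure D1:**
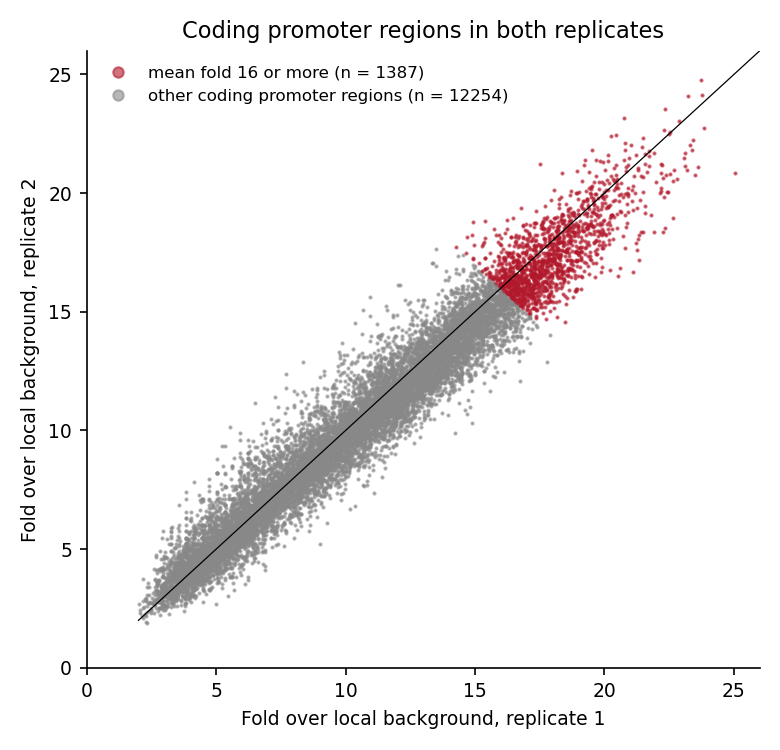
Fold over local background in replicate 1 (horizontal) and replicate 2 (vertical) for every shared coding promoter region, with the 1387 at a mean of 16 or more in red, the 12254 others in grey and the line of equal folds in black. The red points run from 14.3 to 25.05 in replicate 1 and from 14.6 to 24.8 in replicate 2, and replicate 1 was higher at 939 of them.

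All 1387 were also in the conservative list of peaks that are reproducible between replicates by IDR, a measure of rank agreement. So were 91.9% of the other coding promoter regions and 92.7% of both together. By band the share was 42.0% under 4, 85.5% from 4 to 8, 99.98% from 8 to 12 and 100% from 12 to 16. It therefore does not set the 1387, chosen by high fold in both samples, apart from the regions below them. The −log10 p of the 1387, averaged over the replicates, had a median of 115, against 56.3 at the others and 96.8 from 12 to 16. It belongs to the same peaks as the fold that chose the 1387, so it is no separate evidence. The summits of the replicates lay a median of 5 bp apart (interquartile range 3 to 9) at the strongest promoters and 8 bp apart (4 to 16) at the others. From 12 to 16 they lay 6 bp apart (3 to 11). A second match in the genome, of at least 100 bases at 90% identity, was found for the summit window of 41 regions (2.96%), and of 2.94% of the others. These regions may share reads with a copy, so their folds are uncertain. The highest of them were Zfp97, a zinc finger gene, at 22.3 with 5 copies, and Platr25 (21.9), Gm49359 (21.5), 6720489N17Rik (21.4) and Gm5141 (20.9), all on chromosome 13 with 2 or 3 copies. A single region, that of Gm20594 (18.1), matched the mitochondrial genome.

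The summits of the strongest promoters were placed just upstream of the start. Their median position was 28 bp upstream, with an interquartile range of 56 to 5 bp upstream. The other coding promoter regions had nearly the same median, 29 bp upstream, but a wider range, from 87 bp upstream to 21.8 bp downstream. A summit within 50 bp of a start was found at 66.3% of the strongest (95% Wilson interval 63.7 to 68.7%) and at 40.9% of the others (40.03 to 41.8%). Within 100 bp the shares were 89.4% and 60.8%. For regions at a mean fold from 12 to 16 the shares were 51.9% within 50 bp and 76.6% within 100 bp. Regions are not replicates of a condition, and these intervals cover counting error only.

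**Figure D2:**
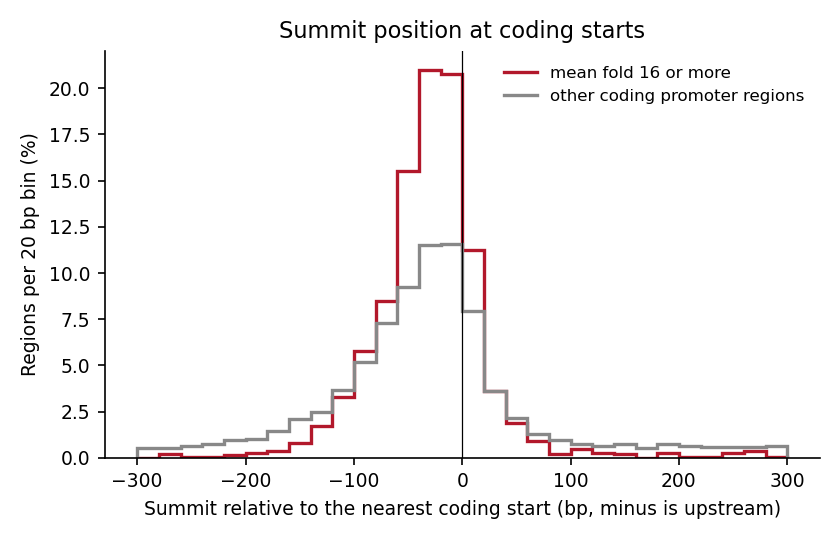
Position of the summit relative to the nearest coding start, in bp with upstream negative, as the percent of regions per bin, for the strongest promoters (red) and the other coding promoter regions (grey). The red distribution is narrower, with 89.4% of summits within 100 bp of a start, against 60.8% for the grey.

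CpG-rich DNA was common under the strongest summits. A window was called CpG-rich where its ratio of observed to expected CpG was at least 0.6 and its GC content at least 55%. This held for 1181 of 1387 windows (85.1%, Wilson interval 83.2 to 86.9%) and for 66.6% of the others (65.8 to 67.4%). By bands of mean fold the share was 51.1% under 4, 52.3% from 4 to 8, 70.0% from 8 to 12, 81.4% from 12 to 16, 84.5% from 16 to 18, 88.2% from 18 to 20 and 80.3% at 20 or more. With 250 bp to each side it was 78.9% from 12 to 16, 79.7% from 16 to 18, 79.6% from 18 to 20 and 67.2% at 20 or more (Wilson interval 58.5 to 74.9%), so the highest band was lower in that wider window. The median GC content was the same at the strongest and the other regions, 64.7%, while the median CpG ratio was 0.857 at the strongest and 0.774 at the others.

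Some of the strongest promoters held almost no CpG. The lowest CpG ratios belonged to Trim30d, a gene of the TRIM family, with a ratio of 0 and a mean fold of 18.4, and to Tfeb, a regulator of lysosomal genes, with a ratio of 0.129 and a mean fold of 16.2. The window of Trim30d has a second match in the genome, so its fold is uncertain. Ndel1, a dynein cofactor, had a ratio of 0.134 at 16.6, and the zinc finger gene Zfp418 had 0.175 at 16.5. Gm20594, the region with the mitochondrial match, had 0.129 at 18.1.

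The strongest regions were of moderate width. Their median was 849 bp, with an interquartile range of 723 to 988.5 bp, against 788 bp (516 to 1057 bp) for the others. Width did not keep growing with the fold: its median was 393 bp under a fold of 4, 548 bp from 4 to 8, 897 bp from 8 to 12, 952 bp from 12 to 16, 876 bp from 16 to 18, 827 bp from 18 to 20 and 751.5 bp at 20 or more. Regions over 1000 bp made up 23.0% of the strongest and 29.8% of the others. The widest were those of Slc16a10, an amino acid transporter (1552 bp), Taok1, a kinase (1440 bp), Pprc1, a coactivator of the PGC-1 family (1424 bp), Asb8 (1418 bp) and Pigm, an enzyme of GPI-anchor synthesis (1400 bp).

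Most of the strongest regions marked the first start of their gene. The 5′ end of a protein-coding gene was within 500 bp at 1273 (91.8%, Wilson interval 90.2 to 93.1%), against 79.6% of the others (78.8 to 80.3%). From 12 to 16 the share was 89.9% (88.8 to 90.8%), so it was nearly as high just below the threshold. At the remaining 114 of the strongest (8.22%) the start was internal, and 7 of these 114 also had the start of a gene that is not protein-coding nearby. The highest with internal starts only were Platr25, Ift46, a protein of ciliary transport (21.6, with its summit 4.99 kb from the gene's 5′ end), Trip4, a transcription coactivator (21.3, 23.7 kb), Dcakd (21.2, 11.2 kb) and Grb2, an adapter of receptor signalling (21.2, 9.06 kb). Zcchc4 (21.1), Mrpl35 of the mitochondrial ribosome (20.96), the nucleolar GTPase Gnl2 (20.4), glyoxalase Glo1 (19.9) and the helicase Dhx30 (19.9) followed.

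A bidirectional promoter, with coding starts of opposed genes no more than 1000 bp apart, was found at 121 of the strongest regions (8.72%, Wilson interval 7.35 to 10.3%) and at 7.17% of the others (6.73 to 7.64%). The share was 2.07% under a fold of 4, 2.07% from 4 to 8, 8.62% from 8 to 12, 12.1% from 12 to 16, 9.52% from 16 to 18, 8.33% from 18 to 20 and 4.10% at 20 or more. It was therefore highest in the band below the threshold. When as many regions were taken by mean −log10 p in place of fold, a choice made after seeing the data, the share was 14.7%, and 572 of the 1387 (41.2%) were the same regions.

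Open regions away from promoters were fewer around the strongest promoters. Shared regions over 1 kb from any start numbered a median of 2 within 50 kb of them (mean 2.94), against 4 around the other coding promoter regions (mean 4.34). None lay within 50 kb at 14.5% of the strongest (Wilson interval 12.7 to 16.4%) and at 7.60% of the others (7.14 to 8.08%). From 12 to 16 the median was 3 and the share with none 11.5%. At a fold of 20 or more that share was 23.8% (17.1 to 32.1%). Every chromosome from 1 to 19 held some of them, at between 8.62% and 12.1% of its coding promoter regions.

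**Figure D3:**
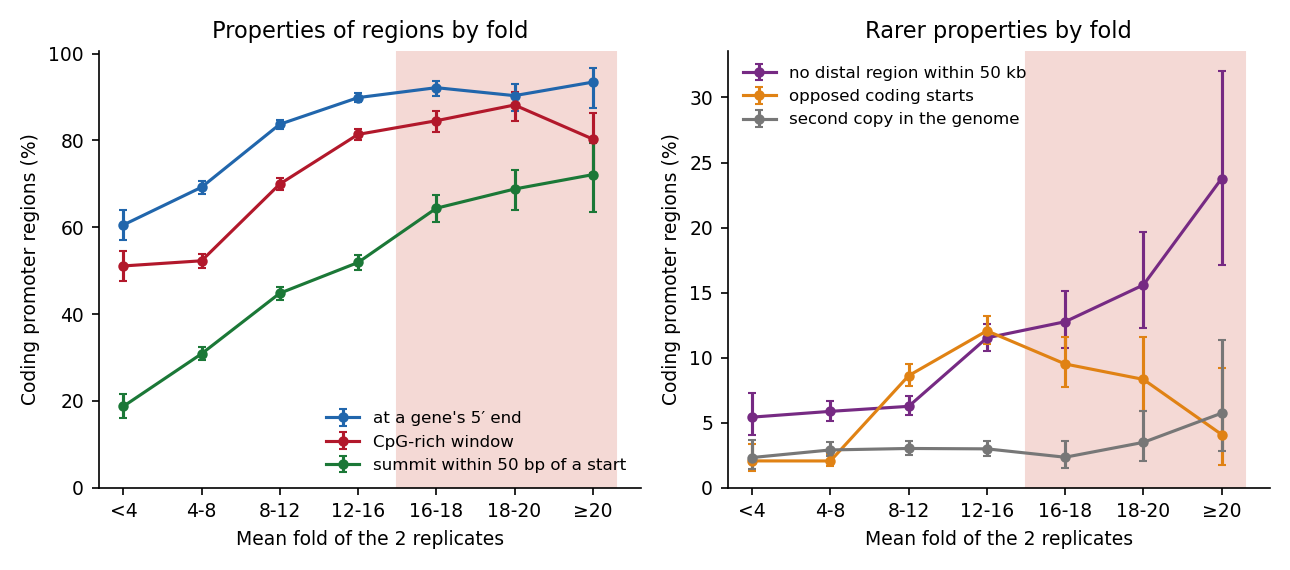
Share of coding promoter regions with each property, in percent, by band of mean fold, with 95% Wilson intervals as bars and the bands at 16 or more shaded. The share with a summit within 50 bp of a start climbs to 72.1% in the highest band, while opposed coding starts are most frequent from 12 to 16, at 12.1%.

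The letters of the ETS motif, CCGGAAG, were present in the summit windows of 445 of the strongest promoters (32.1%) and of 12.5% of the others. ETS proteins are a large family of activators, and several bind promoters in every cell. The share grew with the fold below the threshold and was level above it: 3.36% under 4, 6.46% from 4 to 8, 12.4% from 8 to 12, 21.2% from 12 to 16, 32.1% from 16 to 18, 32.5% from 18 to 20 and 30.3% at 20 or more. Within CpG-rich windows it was 34.3% at the strongest and 15.97% at the others. Windows of the same length 500 bp to each side of the strongest summits held it in 1.69%, so the letters were concentrated under the summit. This was not particular to ETS: GGGCGG was in 63.0% of the strongest summit windows and 11.5% of their flanking windows. The flanking windows were not matched for base composition. The median position of the ETS match was 13 bp upstream of the start. Gpatch4 and Gle1 are the highest regions with the motif, both outside the stretch free of exons, and Naxd, an enzyme that repairs damaged NADH, is the highest with it inside the stretch and no second copy (21.7).

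CCAAT, the motif of the trimeric factor NF-Y, was in more windows than any of the 21 motifs searched except the short GC box, GGGCGG. It is shorter than the ETS letters, so the shares of the pair cannot be ranked directly. CCAAT was in 603 windows of the strongest promoters (43.5%) and in 28.1% of the others. By band the share was 14.1% under 4, 20.3% from 4 to 8, 30.1% from 8 to 12, 37.2% from 12 to 16, 40.8% from 16 to 18, 48.1% from 18 to 20 and 49.2% at 20 or more. These 5 letters are common by base composition, and flanking windows of the strongest held them in 21.4%. The longer GATTGGC, which contains CCAAT on the opposite strand, was in 14.6% of the strongest windows, 7.83% of the others and 1.44% of the flanking windows of the strongest. The median match lay 53 bp upstream of the start, and 85.8% were upstream. Pnpt1, Tbc1d10a and Prpf8, printed above, are among the highest with it, Prpf8 with 2 copies.

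ETS and CCAAT together marked a set in which the strongest promoters were frequent. Of 498 coding promoter regions with both, 168 (33.7%) were at a mean fold of 16 or more. The share was 18.7% of the 1480 with ETS and no CCAAT, and 12.3% of the 3549 with CCAAT and no ETS. Of the 7671 regions with none of ETS, CCAAT, YY1 and ZNF143 letters, 5.50% were at 16 or more. Of the 5970 regions with at least 1 of these 4 motifs, 965 (16.2%) were at 16 or more, against 10.2% of all 13641. These 965 were 69.6% of the strongest promoters, and 422 (30.4%) had none of the 4. The YY1 and ZNF143 letters were put in this group after their values were seen.

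A pair of rarer motifs, chosen for mention after their values were seen, kept growing in frequency above the threshold. AAGATGGCG, the YY1 motif, was in 6.27% of the strongest windows and 2.02% of the others, and in 5.04% from 16 to 18, 7.53% from 18 to 20 and 11.5% at 20 or more. YY1 is a zinc finger protein that often binds just inside the transcribed region. Its letters lay at a median of 26.5 bp downstream of the start, and 86.7% of the matches read in the direction of the gene. ACTACAA, part of the site of ZNF143 and THAP11, was in 6.56% and 2.84%, with 5.94%, 6.45% and 11.5% in the same 3 bands. It lay at a median of 65 bp upstream. The top band holds 14 windows of each motif. Zcchc10 (22.3 in replicate 1, 23.5 in replicate 2) and Med24 (22.5 and 22.6) are the highest with YY1 letters, and Nicn1 and Med24 the highest with ZNF143 letters.

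Other promoter motifs did not follow the fold in this way. The SP and KLF motif GGGGCGGGG was in 14.8% of the strongest windows and 17.9% of the others, with 20.8% from 12 to 16. GGGCGG, the GC box contained in it, was in 63.0% and 57.2%, and within CpG-rich windows in 67.1% and 72.2%. The NRF1 motif GCGCATGCG was in 24 windows (1.73%) and in 2.31% of the others, with Prc1 (21.1) and Ppil4 with Ginm1 (19.4) the highest. The NRF1 share of the strongest was 0.721% with 50 bp to each side of the summit, 2.74% with 250 bp and 0.865% in the ranking by −log10 p. TGACGTCA was in 53 windows (3.82%) and in 2.79% of the others, with Ranbp6, a nuclear import receptor (21.4), and Nupl2, a nuclear pore protein (20.4), the highest. The CGCG element was in 20 windows (1.44%) and in 1.04%, with Tubgcp5 (19.5), a component of the gamma-tubulin complex, and Sap18 (18.9) the highest. TATAAA, the TATA box, was in 12 windows (0.865%) and in 2.81% of the others.

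Letters of GATA, RUNX, PU.1 and AP-1 factors were each in under 4% of the strongest windows. The ETS letters above, which FLI1 is also known to bind, were in 32.1%. These motifs differ in length and base composition, so their shares cannot be set against each other directly. Flanking windows of the strongest held GATA letters in 9.08%, RUNX in 4.97%, AP-1 in 3.82% and PU.1 in 0.721%. In the summit windows the motif of GATA factors, spelled AGATAA, was in 1.51% of the strongest and in 3.16% of the others. Within CpG-rich windows the shares were 1.44% and 1.25%. TGTGGTT (RUNX) was in 2.60% and 2.94%, GAGGAAGT (PU.1) in 3.10% and 4.10%, and TGANTCA (AP-1) in 2.16% and 4.09%. Within CpG-rich windows the direction turned for RUNX, at 2.37% of the strongest and 1.53% of the others, and for PU.1, at 2.88% and 1.85%, while AP-1 was at 1.95% and 2.16%. CACGTG (E-box) was in 7.35% and 7.70%, TTCCCGC (E2F) in 7.28% and 5.83%, AGGGGGCGC (CTCF) in 2.38% and 2.20%, GTTGCCATG (RFX) in 0.937% and 0.596%, GAAANNGAA (IRF) in 3.97% and 4.37% (3.64% and 2.57% within CpG-rich windows), and TGACGT, contained in the CRE, in 13.7% and 8.95%. All 21 motifs were searched on both strands. A match is a description of letters in the window and shows no binding.

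**Figure D4:**
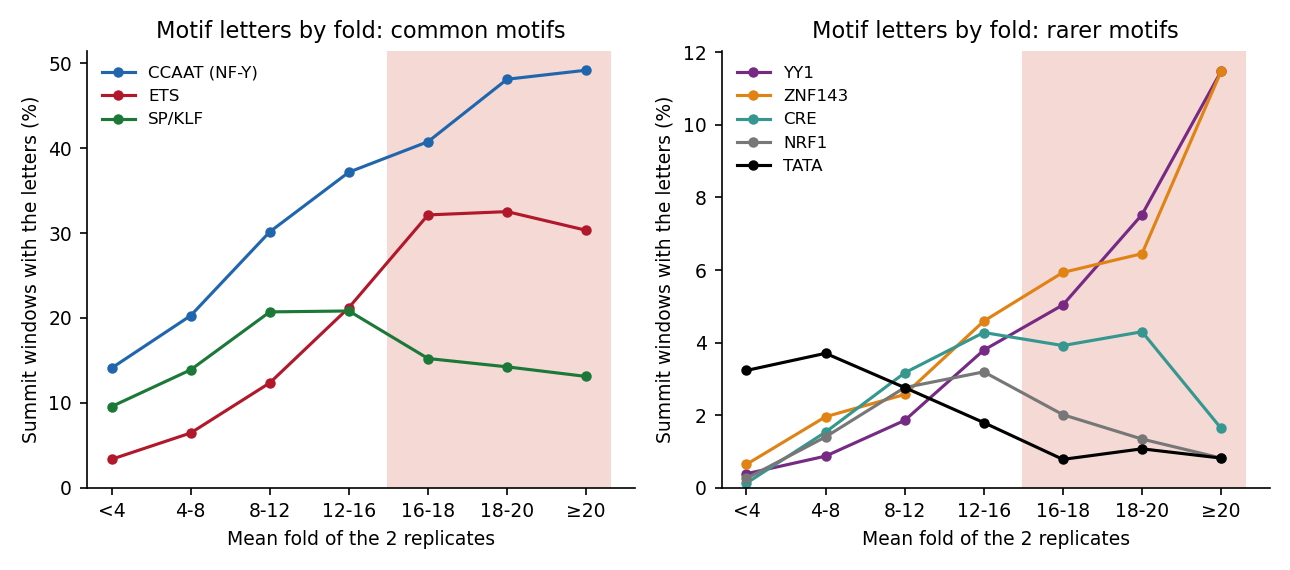
Share of summit windows with the letters of each motif, in percent, by band of mean fold, with the bands at 16 or more shaded. CCAAT reaches 49.2% and YY1 and ZNF143 11.5% each in the highest band, while ETS stays between 30.3% and 32.5% above the threshold and the SP and KLF, NRF1 and TATA shares are lower there than from 12 to 16.

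The strongest promoters were at 1534 protein-coding genes, which is 7.37% of the 20807 on these chromosomes and 12.5% of the 12295 with a shared region at a start. Gene lists were read against these backgrounds by count, with no test. The shares of the lists, and their order, depend on the threshold. Of 34 proteasome subunits 14 had such a promoter, led by Psmb6 of the catalytic core (20.8 in replicate 1, 21.4 in replicate 2), Psmd6 of the regulatory particle (22.1 and 20.01) and Psmd11 (20.6 and 19.9). Of 46 mitochondrial ribosomal proteins, a selection of the family, 18 did, led by Mrpl15, Mrpl11 (20.3 and 19.7) and Mrps27 (19.6 and 19.7). Over all genes with these symbol prefixes, counted after the values were seen, it was 13 of 29 for Mrps and 12 of 49 for Mrpl. Of 36 aminoacyl-tRNA synthetases 14 did, led by Farsa (17.7 and 19.5), Lars2 (18.5 and 18.4) and the opposed pair Hars and Hars2, which share a region (18.3 and 17.96). The list of mitochondrial import, RNA and translation factors had 12 of 34, with Pnpt1, Tsfm and Timm44, a motor component of the inner membrane translocase (21.4 and 18.4), on top.

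Cell division and DNA copying genes were frequent at this threshold. Of 42 genes of mitosis and endomitosis 14 had such a promoter, with Cdc25c, a phosphatase that triggers mitosis (20.8 and 22.1 in replicates 1 and 2), Espl1, the separase that cuts cohesin (22.2 and 20.6), and Tpx2, a spindle assembly factor (21.5 and 20.7), highest. CCAAT letters were under 11 of these 14, with 4 copies at Cdc25c, and ETS letters under 2. Over all 42 regions of the list, CCAAT was in 73.8% and ETS in 16.7%, against 32.3% and 16.5% over the 11168 regions of all genes with a shared promoter region. Of 43 DNA replication and repair genes 14 did, led by Rpa1 of the single-strand binding complex (18.7 and 18.02), Orc2 of the origin recognition complex (18.2 and 17.7) and Gins4 of the replicative helicase (18.2 and 17.6). CCAAT letters were under 8 of those 14. At a threshold of 18 the counts were 7 of 42 for mitosis and 1 of 43 for replication and repair, against 7 of 40 for spliceosome components. At that threshold 494 of the 13641 coding promoter regions remained. The share of all genes at 18 is not given here, so these counts cannot be read against the 7.37% and 12.5% at 16.

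RNA and protein synthesis lists were mixed. Spliceosome components had 11 of 40, with Snrnp48, Prpf8 and Snrpd1 (21.8 and 19.1) highest, and ETS letters under 7 of the 11. Oxidative phosphorylation subunits had 13 of 48, with Ndufa3 (21.2 and 17.9), Cox6b1 (19.8 and 19.01) and Ndufb3 (18.7 and 18.9) highest. Ribosome biogenesis factors had 10 of 37, with Gpatch4, Rrn3 (21.3 and 17.6) and Utp20 (17.9 and 18.8) highest. RNA polymerase II, general transcription and Mediator factors had 9 of 46, led by Ercc2, Polr2d and Cdk7, with mean folds of 21.5, 19.9 and 19.6. Translation factors had 8 of 41, led by Eif2b3 (18.8), Eif2b2 (18.04) and Eif3h (17.2). Cytosolic ribosomal proteins, among the most highly expressed genes of any cell, had 7 of 52 (13.5%, near the 12.5% of genes with a shared region). The highest were Rpl31 (19.1), Rps16 (18.4) and Rpl27 (18.2). The median mean fold of the promoters of the 52 was 14.2, against 11.4 over all genes with a shared region.

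Of 45 coat, retromer and vesicle tethering genes 11 had such a promoter, with Exoc4 (20.2), Sar1b (19.8) and Vps29 (18.9) highest. Autophagy and lysosome genes had 6 of 38, led by the kinase Pik3c3 (18.1), its regulator Pik3r4 (17.5) and Tfeb. Without replicate 1 the count of this list was 3. Nuclear pore and transport genes had 6 of 40, led by Nup214 (19.01), Rangap1 (17.6) and Ipo7 (17.6). Chromatin regulators had 5 of 45, which were Kat8 (20.5), Chd8 (19.5), Kdm1a (18.4), Smarcc1 (17.6) and Hdac1 (16.3). This was 11.1%, between the 7.37% of all genes and the 12.5% of genes with a shared region. Cytosolic chaperones had 3 of 31, namely Pfdn5 (19.1), Pfdn2 (17.6) and Cct8 (16.4), a share between those of all genes and of genes with a shared region.

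Genes of the megakaryocyte lineage were not among the strongest promoters, with Grb2 as the exception. The share over all protein-coding genes was 7.37%, so lists of this size are expected to hold few. None of 30 surface and granule genes was at 16 or more, and the highest was Cd226, a platelet adhesion receptor, at 12.1 in replicate 1 and 10.1 in replicate 2. None of 25 megakaryocyte and erythroid transcription factors was, with Stat5a highest at 14.1 and 14.9. None of 37 proplatelet cytoskeleton genes was, with the formin Diaph1 highest at 16.2 and 15.4, so that it passed in replicate 1 alone. By replicate 1 alone, 2 of the 37 were at 16 or more. Of 36 platelet and thrombopoietin signalling genes, Grb2 did (20.9 and 21.5), at a start internal to the gene. The median mean folds of the promoters of these 4 lists were 7.62, 8.48, 9.97 and 8.88, below that of all genes with a shared region (11.4). They come from the 17, 23, 36 and 34 genes of the lists with a shared region.

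Genes of other blood cells were absent too, again beside 7.37% of all genes. None of 27 erythroid, 32 neutrophil, monocyte and macrophage, or 30 B, T and NK cell genes was at 16 or more. The highest of each were Bpgm (14.8), Mertk (14.1) and Cd3d (14.7). None of 28 hepatocyte and neuronal genes was. A shared region at a start was present for 20 of the 27 erythroid genes and 26 of the 32 neutrophil, monocyte and macrophage genes. It was present for 11 of the 30 B, T and NK cell genes and 5 of the 28 hepatocyte and neuronal genes, so few of these could be counted. Over all protein-coding genes it was 12295 of 20807. Of 29 interferon-stimulated genes 2 had such a promoter (6.90%, near the share of all genes). The highest was Stat2, a transcription factor that carries the interferon signal, with 17.96 in replicate 1 and 18.3 in replicate 2. It had 2 CCAAT matches. In peak lists of a single group a level of fold describes openness relative to the local background and not expression.

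**Figure D5:**
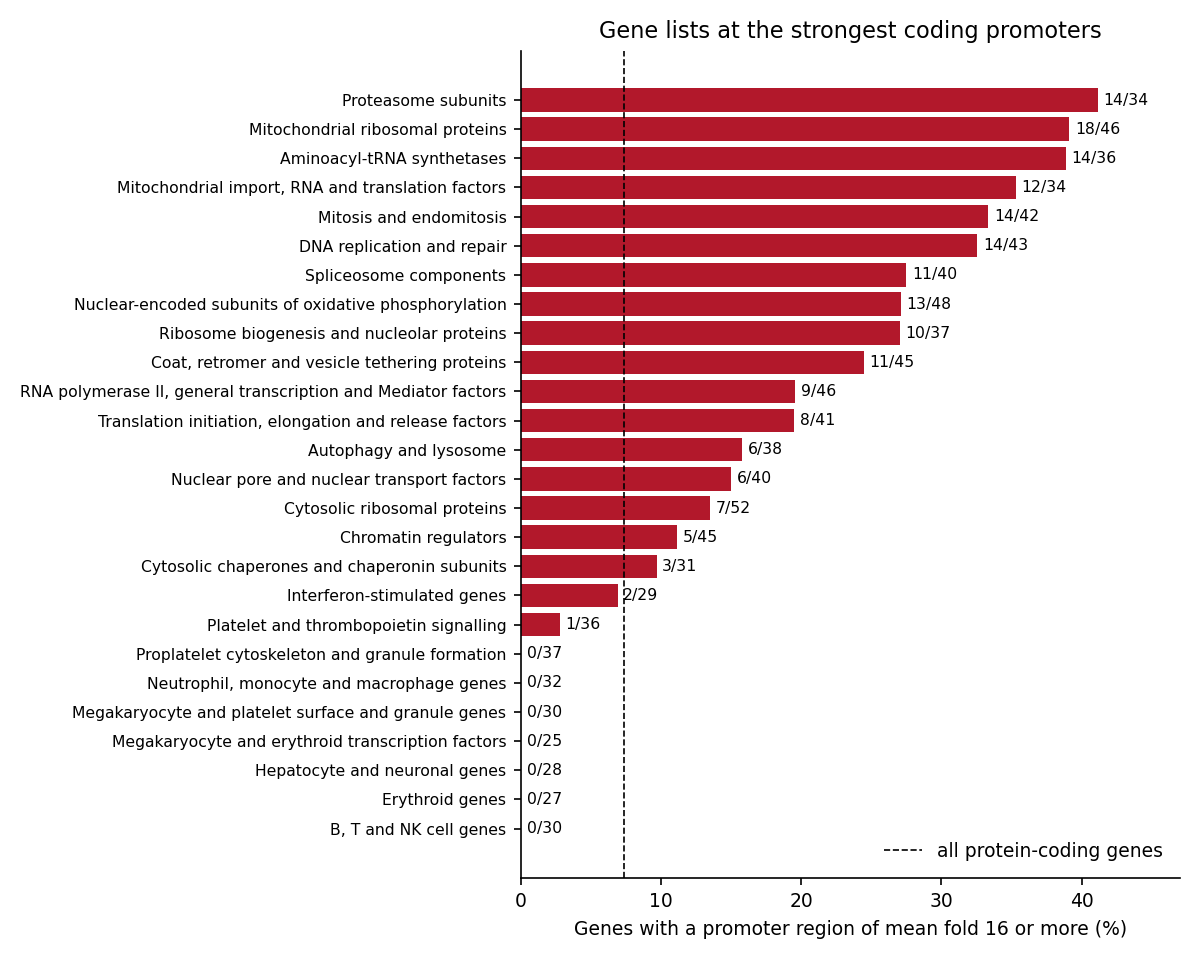
Percent of the genes of each list with a promoter region at a mean fold of 16 or more, with the counts beside the bars. The dashed line is at 7.37%, the share of all protein-coding genes. The share of genes with a shared region at a start, 12.5%, is not drawn. Proteasome subunits (14 of 34) and mitochondrial ribosomal proteins (18 of 46) have the longest bars, and 7 lists, all of them of blood cells, platelet formation or other tissues, have none.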

How the data were processed

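ATAC-seq was measured in 2 megakaryocyte samples of 1 group. The authors deposited peak lists on mm10, made from filtered alignments and a file of excluded regions, per the file lists deposited with them. The peak caller and the aligner are not given in the sources used here. Column 7 holds the deposited fold enrichment (a ratio over local background) and column 8 the deposited −log10 p, with p no larger than 0.00997 in the lists of each sample. Pseudoreplicated lists of each sample were used, and IDR lists and pooled lists served as alternatives.

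Rows overlapping by at least 1 bp were merged and joined between samples with Python 3.11.15. Starts and exons came from GENCODE M21, and sequence from the GRCm38.p6 assembly, whose chromosome lengths match mm10, read with pysam 0.24.0. Windows took 100 bases to each side of the summit of the sample with the higher fold. Copies were sought with blastn 2.17.0. Summaries used numpy 2.4.6 and scipy 1.17.1, and the merging and motif steps were tested on simulated data. No significance test was run: regions are described by counts, medians and 95% Wilson intervals.

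Members and gene lists were chosen with earlier results of these data known. Named genes were the 15 highest, the 5 on each side of the threshold, the 5 with the largest replicate ratio, the 5 widest, the 5 lowest in CpG, the 10 highest with internal starts, the 5 highest with a second copy, the 2 highest with a motif and the 3 highest of each list. Of 995 listed symbols, 971 were found on chromosomes 1 to 19. Depth is unknown, so no precision from counts can be given. Values of some listed genes are not reported here.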

Additional observations from a re-analysis of the deposited data

How the results depend on the processing

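The number of strongest promoters was 1387. It was 2902 at a mean fold of at least 14 and 494 at 18, and listed genes with such a promoter numbered 372 and 73 in place of 178. It was 2071 in each of the pooled lists. With a single sample it ranged from 1251 to 1561, and the median width from 774 to 810 bp in place of 849 bp. The width was 879 bp in both pooled lists, 889 bp at a fold of 14, 812 bp at 18 and 989 bp in as many regions ranked by −log10 p, an alternative added after seeing the data. That ranking gave 14.7% bidirectional, 94.95% at a 5′ end, 25.96% with ETS letters, 0.865% with NRF1 and 56.0% with CCAAT. Bidirectional shares were 10.7% at a fold of 14, 7.29% at 18 and 7.28% with the 5′ end as a gene's only start. The CpG-rich share was 78.6% with 250 bp to each side. ETS letters were in 28.4% at a fold of 14, and in 22.6% and 37.6% with 50 and 250 bp to each side. NRF1 shares in these settings were 2.62%, 0.721% and 2.74%, and CCAAT shares 39.8%, 35.3% and 55.01%, with 48.4% at a fold of 18. The log2 ratio between replicates, -0.04 by fold, was 0.0359 by −log10 p, and the cause was not tested. Single gene lists moved by more than 1.5 times in 45 of 156 alternatives. No paired analysis was possible because the samples form 1 group. The local background behind each fold is not used here, and the depth of each sample is unknown.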

Other observations

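Gene families read by the start of their symbol, a grouping made after the values were seen, are given by how many of their genes had a promoter at a mean fold of 16 or more. Of 116 symbol prefixes with at least 20 genes, 38 had none. Over all protein-coding genes the share was 7.37%, and 12.5% of those with a shared region, so prefixes of about 20 genes are expected to hold few. Mitochondrial ribosomal proteins of the small subunit (Mrps) had 13 of 29, DEAD-box helicases (Ddx) 14 of 35, RNA-binding motif proteins (Rbm) 13 of 35, general transcription factors of the Taf family 6 of 20, genes with the prefix Rad 6 of 20 and WD-repeat proteins (Wdr) 16 of 61. The large subunit of the mitochondrial ribosome (Mrpl) had 12 of 49. Zinc finger genes with the prefix Zfp had 60 of 385, which made them the prefix with most members by number, and 15.6% of the family.

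The strongest promoters lay closer to each other than the other coding promoter regions lay to them. The nearest other region of the set was a median of 206443 bp away from a strongest promoter and 294721 bp away from another coding promoter region. From 12 to 16 the median was 260803 bp, and at a mean fold of 20 or more it was 124174 bp. No explanation was tested.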
